A study of Mus musculus with 4 samples.

Results

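Matrix metalloproteinases (MMPs), ADAMTS proteases, the ADAMTS-like proteins related to them and the tissue inhibitors of metalloproteinases (TIMPs) were examined in primary mouse astrocytes. The members were all protein-coding genes of the deposited table whose symbols start with Mmp, Adamts or Adamtsl and a number, or are Timp1 to Timp4. They numbered 47 of the 25393 genes listed, with 19 MMPs, 19 ADAMTS proteases, 5 ADAMTS-like genes and 4 TIMPs. RNA-seq was done on 4 libraries of untreated astrocytes of C57BL/6 pups at postnatal day 1, from cortex and hippocampus together. The WT group, labelled as control, had 2 libraries, and the Tet1 KO group, labelled tet1-/-, had 2. The KO is constitutive, so all cells of the pups, and not the astrocytes alone, carry it. Per the labels each isolation used 2 mice, the cells were grown for about 7 days and purified by shaking at 260 rpm, and RNA was taken 24 h later. The study calls its RNA-seq samples biological repeats and states more of them per genotype than the 2 libraries per group analysed here. The labels do not say whether those of a group came from separate cultures, so p-values measure the spread between these libraries.

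The values are normalized counts, that is, read counts divided by a size factor for each library. Reads on genes numbered from 18749610 to 22673555 per library, and 3 reads, taken as the detection floor, correspond to 2.70 to 3.21 normalized counts. Tet1 (ENSMUSG00000047146), the targeted gene, had 266 and 121 normalized counts in WT against 173 and 463 in the KO group, and limma gave a log2 difference of 0.66 (standard error 0.65, adjusted p = 0.691). Because Tet1 was not lower there, these are called the KO-labelled libraries, and each direction rests on the label. The KO-labelled libraries also stood further apart from each other than the WT libraries. Over 12868 genes averaging at least 50 normalized counts, 28.6% differed by more than 2-fold between the KO-labelled libraries and 10.7% between the WT libraries. Among the 31 members at that level, 15 and 8 did so. Summed astrocyte markers (8 genes, Gfap and Slc1a3 among them) reached 1344 and 1336 FPKM in WT, and 2281 and 356 FPKM in the KO-labelled libraries. Without Gfap the other 7 summed to 657 and 571 FPKM in WT against 411 and 239. Of the 8 markers, 6 were lower in fit (median log2 fold change -0.78). Both KO-labelled libraries lay below WT in 5 and above in 1, beside 25.4% and 22.5% of all genes. DESeq2 called 0, and 2 were lower at an unadjusted p under 0.05 in limma, beside 9.18% of all genes. FPKM, which scales the reads to the length of the gene and the depth of the library, is used wherever the levels of different genes are compared. Xist had 8.54 and 0.92 normalized counts in WT against 2896 and 13367 in the KO-labelled libraries, while 4 Y-linked genes summed to 30.9 and 14.3 FPKM against 0 and 7.14. Sex therefore cannot be told apart from the label here.

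MMPs are zinc endopeptidases that cut collagens, laminins, proteoglycans and signalling proteins, and most are made as inactive proenzymes. ADAMTS proteases are secreted relatives with thrombospondin repeats, and several of them cut the hyaluronan-binding proteoglycans (hyalectans) that fill the extracellular space of the brain. ADAMTS-like proteins carry the repeats without the protease domain, and TIMPs bind and inhibit the active enzymes. Astrocytes are a source of many of these proteins and of their substrates. Tet1 oxidises 5-methylcytosine, which in mammalian DNA lies mostly in CpG dinucleotides.

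Several MMP genes lie side by side on chromosome 9 of mm10. GENCODE M21 places 9 of them between 7272514 and 7699585, of which 6 had a row in the table and 3 (Mmp13, Mmp12 and Mmp3) passed the filter for testing. Of the 47 members, 32 had a promoter window in the RefSeq table (GRCm38.p6), which reaches from 250 bases before to 50 bases after the start. The letters TGAGTCA or their reverse complement TGACTCA, the classical AP-1 element, were in 3 member windows, those of Mmp3, Mmp10 and Mmp13, all from this cluster. This was 9.38% of the member windows, and 5.20% of all 32851 windows held the letters. The last 100 bases before the start are shown for these genes, 5′ to 3′ on the strand of the gene, with the AP-1 letters in capitals.

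Mmp3, chr9:7445722-7445821, plus strand: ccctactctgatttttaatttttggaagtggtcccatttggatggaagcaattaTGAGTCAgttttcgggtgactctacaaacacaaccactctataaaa
Mmp10, chr9:7502242-7502341, plus strand: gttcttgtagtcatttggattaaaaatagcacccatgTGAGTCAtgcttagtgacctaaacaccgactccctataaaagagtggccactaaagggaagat
Mmp13, chr9:7272414-7272513, plus strand: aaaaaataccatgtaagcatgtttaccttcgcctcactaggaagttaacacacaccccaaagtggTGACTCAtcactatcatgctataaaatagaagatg

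The AP-1 letters began 46 bases before the start in Mmp3, 63 in Mmp10 and 35 in Mmp13. All of these windows also held the letters TATAAA, which do not overlap the AP-1 letters. On either strand TATAAA was in 7 member windows (21.9%), and in 13.6% of all windows. A match describes the letters only.

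CpG content varied widely among the members. Member windows held from 0 to 46 CpG dinucleotides in 300 bases, with a median of 18.5, and the median of all windows was 7. The medians were 7 for the 14 MMP windows, 23.5 for the 10 ADAMTS windows, 26.5 for the 4 ADAMTS-like windows and 16 for the 4 TIMP windows. The 250 bases before the start are shown for Mmp24 and Adamts1, since of the 6 members that DESeq2 called only they and Mmp3 have a window, with every CpG in capitals.

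Mmp24, chr2:155775092-155775341, plus strand: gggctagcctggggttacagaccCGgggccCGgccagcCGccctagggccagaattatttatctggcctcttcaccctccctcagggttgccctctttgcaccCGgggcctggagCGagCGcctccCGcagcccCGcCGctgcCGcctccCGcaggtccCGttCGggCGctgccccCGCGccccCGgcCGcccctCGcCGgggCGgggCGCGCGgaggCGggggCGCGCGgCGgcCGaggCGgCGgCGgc
Adamts1, chr16:85803114-85803363, minus strand: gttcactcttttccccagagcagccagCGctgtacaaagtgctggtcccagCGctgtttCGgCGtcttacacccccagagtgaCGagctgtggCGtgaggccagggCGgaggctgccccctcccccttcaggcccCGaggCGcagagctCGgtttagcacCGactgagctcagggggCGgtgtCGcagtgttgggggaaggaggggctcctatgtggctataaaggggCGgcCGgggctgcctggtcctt

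The upstream stretch held 33 CpG dinucleotides in Mmp24 and 15 in Adamts1, and the 300-base windows held 44 and 18. The window of Mmp3 held 1. Methylation was not measured in these libraries, so the letters describe the sequence only.

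As a family, the TIMPs carried most of the members' RNA. Their summed level was 305 and 373 FPKM in WT against 619 and 296 FPKM in the KO-labelled libraries. They made up 65.4% and 65.7% of the summed level of all members in WT, and 77.8% and 59.9% in the KO-labelled libraries. The MMPs summed to 91.0 and 121 FPKM in WT and to 82.9 and 81.4 FPKM in the KO-labelled libraries, so both of the latter lay below both WT libraries. The ADAMTS proteases summed to 43.5 and 41.2 FPKM in WT and to 67.1 and 97.0 FPKM in the KO-labelled libraries, and here both of the latter lay above. Adamts1 carried this, since the other 18 summed to 27.2 and 25.8 FPKM in WT against 25.3 and 31.5, which overlap. The MMP sums without Mmp14, the most abundant, were 63.0 and 79.5 FPKM in WT against 49.6 and 29.8. ADAMTS-like genes reached 27.1 and 32.6 FPKM against 26.5 and 19.6. The ratio of summed TIMPs to summed MMPs was 3.35 and 3.08 in WT against 7.47 and 3.64 in the KO-labelled libraries. With 2 libraries per group, the smallest two-sided p of an exact permutation test is 0.333, and no test was run on these sums.

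**Figure D1:**
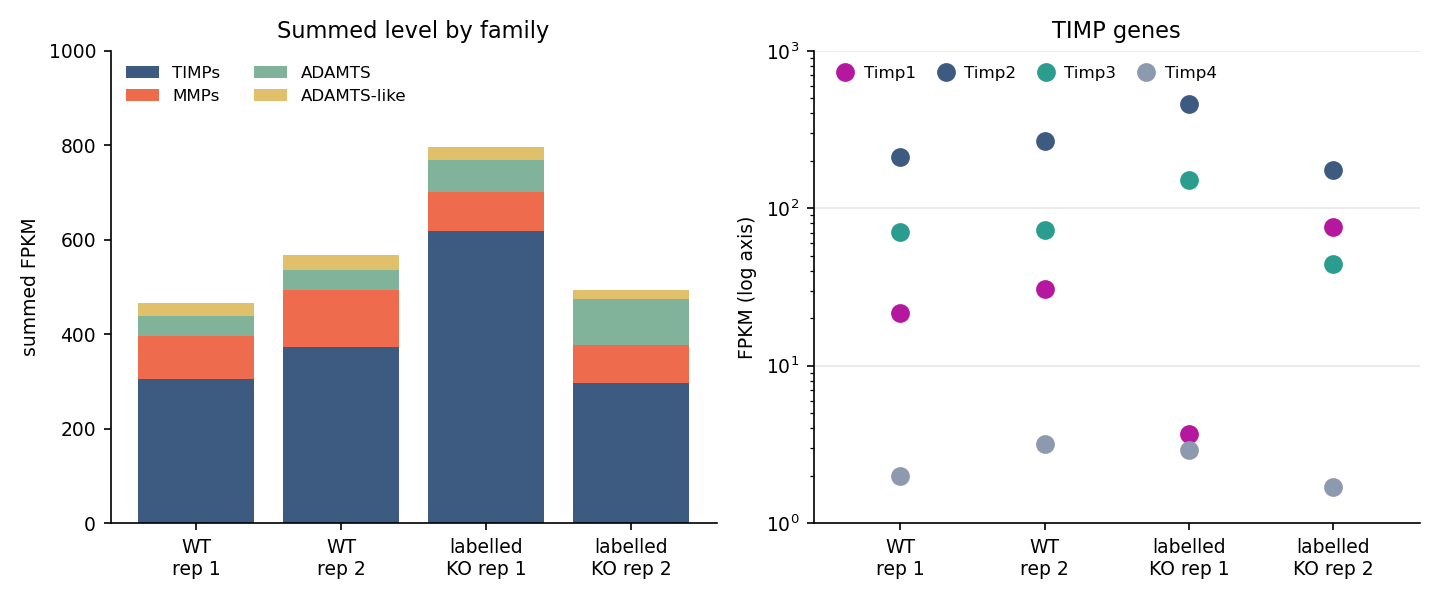
Left, stacked bars of the summed level (FPKM, linear axis from 0) of TIMPs, MMPs, ADAMTS and ADAMTS-like genes in each library. Right, the 4 TIMP genes in each library (FPKM, log axis). The TIMP bar of the KO-labelled library replicate 1 reaches 619 FPKM, and Timp1 spans 3.70 to 76.1 FPKM between the KO-labelled libraries.

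Of the 47 members, 7 had a mean of at least 10 FPKM, 26 of at least 1 FPKM and 21 were under 1 FPKM. Timp2 was first with a mean of 278 FPKM, ahead of Timp3 with 84.5, Mmp14 with 38.6, Adamts1 with 34.7, Timp1 with 33.0, Mmp15 with 21.9 and Adamtsl4 with 11.9. Timp2 lay above Timp3 in every library, and below them each gene's range over the 4 libraries overlapped that of its neighbour in this order. The test needed a mean of at least 1 normalized count, which 40 members passed. The other 7 (Mmp8, Mmp10, Mmp25, Mmp21, Mmp27, Adamts13 and Adamts19) had at most 4 reads in any library, so a difference was not detectable at this depth.

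No member passed an adjusted p of 0.05 in limma, the main test, which fits log2(normalized count + 1) over all 22094 genes tested with Benjamini-Hochberg adjustment, nor in edgeR. Over all genes the share called was 0% in both, with lowest adjusted p-values of 0.0777 in limma and 0.0843 in edgeR, and over the members they were 0.122 and 0.120. At an unadjusted p under 0.05, limma had 12 of the 40 members (30%), against 13.7% of all genes tested, and edgeR also had 12, against 12.4%. Of the 12, 5 were higher with the KO label (12.5%, against 4.54% of all genes) and 7 were lower (17.5%, against 9.18%). The 7 became 2 without WT replicate 1 and 1 without WT replicate 2, the 5 became 8 without KO replicate 1, and the 7 became 10 without KO replicate 2. DESeq2 on the recovered whole reads called 6 members at an adjusted p under 0.05 (15%, against 4.92% of all genes). Adamts1, Adamts8 and Mmp24 were higher (7.5%, against 1.29%), and Mmp3, Mmp9 and Mmp19 were lower (7.5%, against 3.63%). Without WT replicate 1 the DESeq2 calls were reduced to Mmp19, and without WT replicate 2 to Adamts8. DESeq2 gave no adjusted p for 2 of the 40 (Mmp13 and Adamts16). It called fewer members without either WT library and more without either KO-labelled library, and the same held over all genes. In these fits the remaining library of the group is assumed to vary like the other group.

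Fitted directions were mixed over the members. The log2 fold change was above 0 in 17 of the 40 (42.5%, against 46.3% of all genes) and below 0 in 23 (57.5%, against 53.7%), with a median of -0.31 beside -0.07 over all genes tested. The libraries of the 2 groups did not overlap for 21 members (52.5%, against 47.9% of all genes). Those labelled KO lay above in 9 (22.5%, the same as the 22.5% of all genes) and below in 12 (30%, against 25.4%). These shares lie near the background. The 20 tested members that the naming rule did not reach ranged from -3.46 (Mmp12) to 3.50 (Adamtsl2) in log2 fold change, and none of them was called by DESeq2. MMPs were lower in fit in 10 of 14 (median -0.86), and ADAMTS proteases were higher in 9 of 17 (median 0.18).

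**Figure D2:**
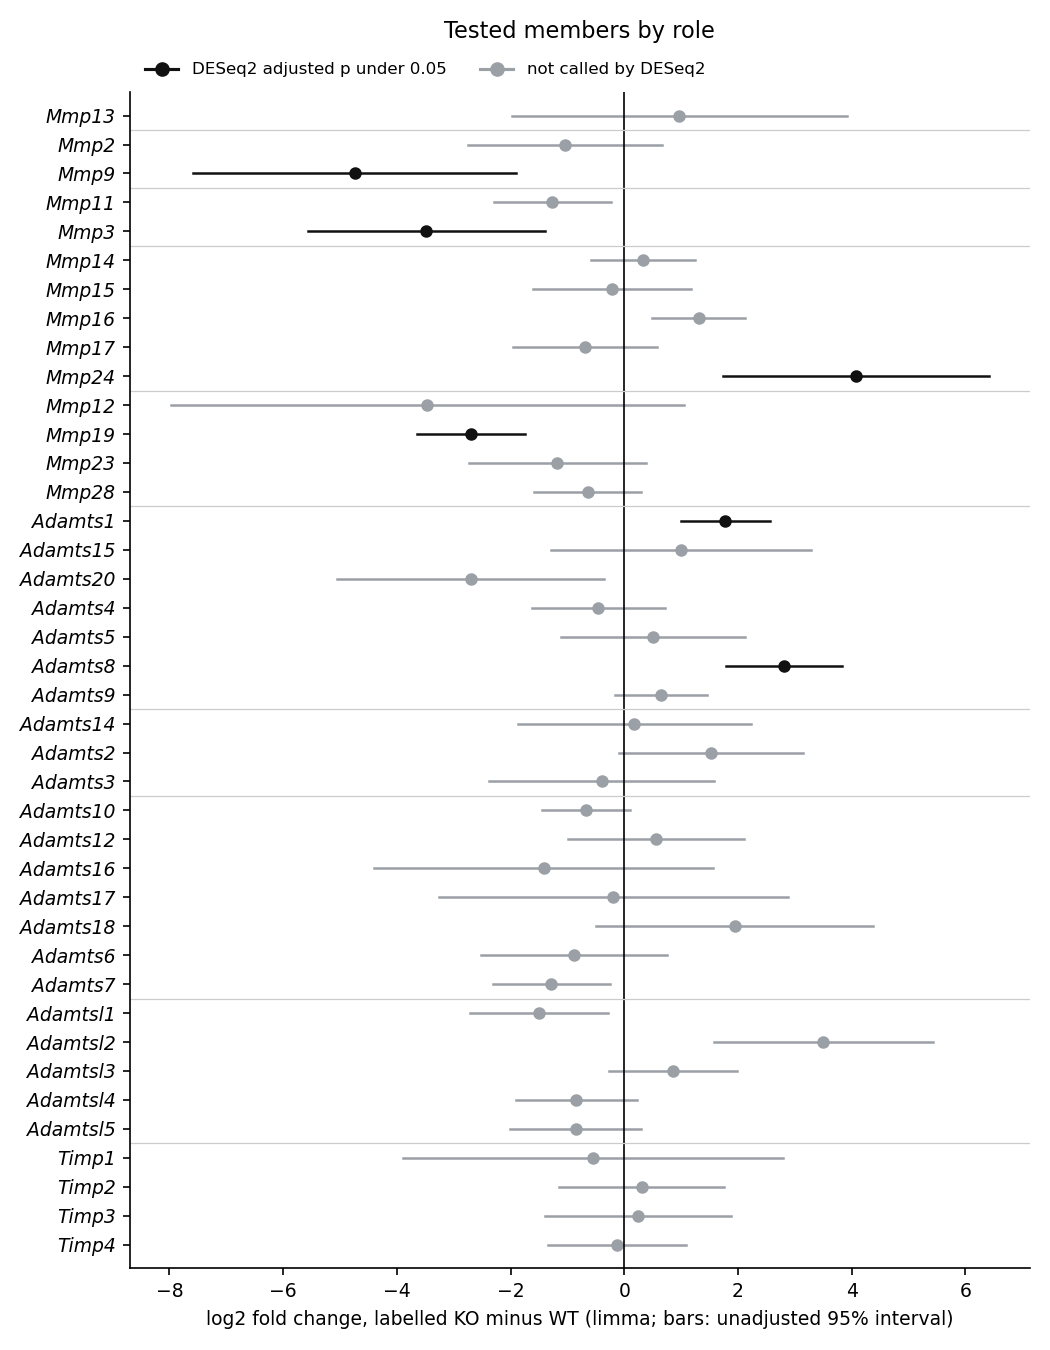
Log2 fold change of the 40 tested members, KO-labelled libraries minus WT, from limma on log2(normalized count + 1), grouped by role from collagenases at the top to TIMPs at the bottom. Bars are unadjusted 95% intervals, and black marks the 6 members called by DESeq2, which lie between -4.74 (Mmp9) and 4.07 (Mmp24).

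The gelatinases Mmp2 and Mmp9 cut denatured collagen and basement membrane collagen. Mmp9 (ENSMUSG00000017737, chr2:164940780-164955850) had 82.2 and 69.9 normalized counts in WT against 0 and 7.21 in the KO-labelled libraries (log2 fold change -4.74, standard error 1.13, limma adjusted p = 0.218). DESeq2 gave it an adjusted p of 0.00394. The ratio of the group means was 21.1, with no read at all in KO replicate 1 and 8 reads in replicate 2. Mmp2, which falls outside the naming rule and was chosen after its values were seen, had 196 and 750 normalized counts in WT against 198 and 176 in the KO-labelled libraries. Its groups overlapped, since WT replicate 1 lay between the KO-labelled libraries, and WT replicate 2 stood alone.

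Stromelysins cut proteoglycans, laminin and other proenzymes. Mmp3 (ENSMUSG00000043613, chr9:7445822-7455975), stromelysin-1, which can activate pro-Mmp9, had 224 and 110 normalized counts in WT against 6.42 and 26.1 in the KO-labelled libraries (log2 fold change -3.48, standard error 0.83, limma adjusted p = 0.218). Its adjusted p in DESeq2 was 0.00252, and its mean was 10.3 times higher in WT. Mmp10 and Mmp13, the other genes with the AP-1 letters shown above, stayed near the floor. Mmp11, stromelysin-3, which is activated inside the cell by furin, had 742 and 832 normalized counts in WT against 448 and 238 in the KO-labelled libraries (log2 fold change -1.26, standard error 0.41, limma adjusted p = 0.307). Both genes were below WT in both KO-labelled libraries, and Mmp11 was not called by DESeq2 (adjusted p = 0.196). Mmp13, the only collagenase with a tested value, had 1 read in all in WT against 7 in the KO-labelled libraries, all of them in replicate 2.

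Of the MMPs in none of these classes and not of the membrane type (Mmp12, Mmp19, Mmp23 and Mmp28), 4 of 4 were lower in fit, with a median of -1.93, beside 53.7% of all genes. Mmp19 (ENSMUSG00000025355, chr10:128790910-128800824), an enzyme that cuts basement membrane proteins, had 706 and 935 normalized counts in WT against 148 and 105 in the KO-labelled libraries (log2 fold change -2.69, standard error 0.38, limma adjusted p = 0.122). That was the lowest limma adjusted p of any member, and DESeq2 gave 4.02e-06. Mmp23 had 40.5 and 67.1 normalized counts in WT against 18.2 and 27.9 in the KO-labelled libraries (log2 fold change -1.17, limma adjusted p = 0.467). Mmp12, the macrophage metalloelastase, also chosen after its values were seen, had 34.1 and 127 normalized counts in WT against 0 and 36.1 in the KO-labelled libraries, so that its groups overlapped (log2 fold change -3.46, standard error 1.79).

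Markers of microglia were lower in the KO-labelled libraries, as were Mmp9, Mmp3 and Mmp19. All 12 of the listed microglial markers were lower in fit, beside 53.7% of all genes. In 11 the WT libraries both lay above the KO-labelled ones, beside 25.4% of all genes. DESeq2 called 9 of them lower, beside 3.63%. Their summed level was 70.1 and 113 FPKM in WT against 25.5 and 12.6 FPKM in the KO-labelled libraries. Within each group Mmp9 and Mmp3 had the opposite order of replicates to this sum, and Mmp19 had the same order. Cx3cr1 had 112 and 349 normalized counts in WT against 23.5 and 11.7 in the KO-labelled libraries, and P2ry12, at 6.40 and 4.60 in WT, was at 0 in KO replicate 1 and at 1 read in replicate 2. In bulk RNA, fewer cells of a type and less RNA per cell cannot be told apart. The part of these cells in the values of the MMPs was not tested.

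Membrane-type MMPs are anchored at the cell surface and act next to the cell. Mmp14, which activates pro-Mmp2 and was the most abundant MMP, had 3332 and 5156 normalized counts in WT against 4401 and 6205 in the KO-labelled libraries (log2 fold change 0.33, standard error 0.36). The groups overlapped, as they did for Mmp15, with 1929 and 3186 normalized counts in WT against 3502 and 1305 in the KO-labelled libraries (log2 fold change -0.21, standard error 0.55). Mmp16 was closer within each group, with 210 and 195 normalized counts in WT against 513 and 493 in the KO-labelled libraries (log2 fold change 1.31, standard error 0.33, limma adjusted p = 0.229). DESeq2 did not call it (adjusted p = 0.0505).

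Mmp24 (ENSMUSG00000027612, chr2:155775342-155818366), a membrane-type MMP known mainly from neurons, had 0 and 2.76 normalized counts in WT against 24.6 and 40.6 in the KO-labelled libraries (log2 fold change 4.07, standard error 0.93, limma adjusted p = 0.208). DESeq2 called it with an adjusted p of 0.0297, but the call was lost with a replicate block and without each of the 4 libraries in turn. Mmp24 is the gene with the CpG-rich upstream stretch printed above. The groups held 3 and 68 reads, a ratio of 21.8 with a 95% interval of 7.14 to 108 for counting error only. Its level stayed low, at 0.43 FPKM in the highest library, and it overlaps the antisense gene BC029722, whose reads cannot be separated from it unless strand was used in counting. Summed neuronal markers were 11.96 and 7.69 FPKM in WT against 11.1 and 17.2 FPKM in the KO-labelled libraries, and Map2 made up most of it. Without Map2 the other 5 summed to 1.51 and 2.17 FPKM in WT against 4.70 and 8.84. Of the 5 neuronal markers tested, 4 were higher in fit with both KO-labelled libraries above WT (median log2 fold change 1.80), beside 22.5% of all genes. DESeq2 called Tubb3 higher, beside 1.29% of all genes. Their part in the value of Mmp24 was not tested. Summed over its members, the membrane type had 51.8 and 73.7 FPKM in WT against 68.6 and 68.4 FPKM in the KO-labelled libraries.

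The hyalectan-cleaving ADAMTS proteases act on aggrecan, versican, brevican or neurocan, and 5 of their 7 genes were higher in fit (median 0.65), beside 46.3% of all genes. In 3 of the 7 both KO-labelled libraries lay above WT, beside 22.5% of all genes, and in 1 below. Adamts1 (ENSMUSG00000022893, chr16:85793827-85803113), the most abundant ADAMTS gene, had 1722 and 1692 normalized counts in WT against 4908 and 7007 in the KO-labelled libraries (log2 fold change 1.78, standard error 0.31, limma adjusted p = 0.150). In DESeq2 the adjusted p was 0.00163, and the group means differed by 3.49 times. Adamts8 (ENSMUSG00000031994, chr9:30942562-30963838) had 61.9 and 95.6 normalized counts in WT against 580 and 516 in the KO-labelled libraries (log2 fold change 2.81, standard error 0.41, limma adjusted p = 0.127). Its DESeq2 adjusted p was 4.02e-06, and the mean was 6.96 times higher in the KO-labelled libraries. Both genes were thus above WT in both libraries, and replicates lay 1.02-fold to 1.55-fold apart.

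Adamts20 was lower in both KO-labelled libraries, with 154 and 334 normalized counts in WT against 13.9 and 81.1 in the KO-labelled libraries (log2 fold change -2.70, standard error 0.93, limma adjusted p = 0.324). The aggrecanases Adamts4 and Adamts5, chosen after their values were seen, overlapped between the groups. Adamts5 had 1195 and 412 normalized counts in WT against 669 and 1481 in the KO-labelled libraries, and Adamts4 had 240 and 263 in WT against 130 and 257 in the KO-labelled libraries.

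Adamts1 and Adamts8 each have a relative close by. Adamts5 lies 53.1 kb from Adamts1 on chromosome 16, and Adamts15 lies 20.1 kb from Adamts8 on chromosome 9, on the other strand and pointing away from it. Adamts15, also outside the naming rule, had 13.9 and 68.0 normalized counts in WT against 91.0 and 43.3 in the KO-labelled libraries. In both pairs the groups were apart for the gene called by DESeq2 and overlapped for its neighbour, and the difference between the neighbours was not tested.

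**Figure D3:**
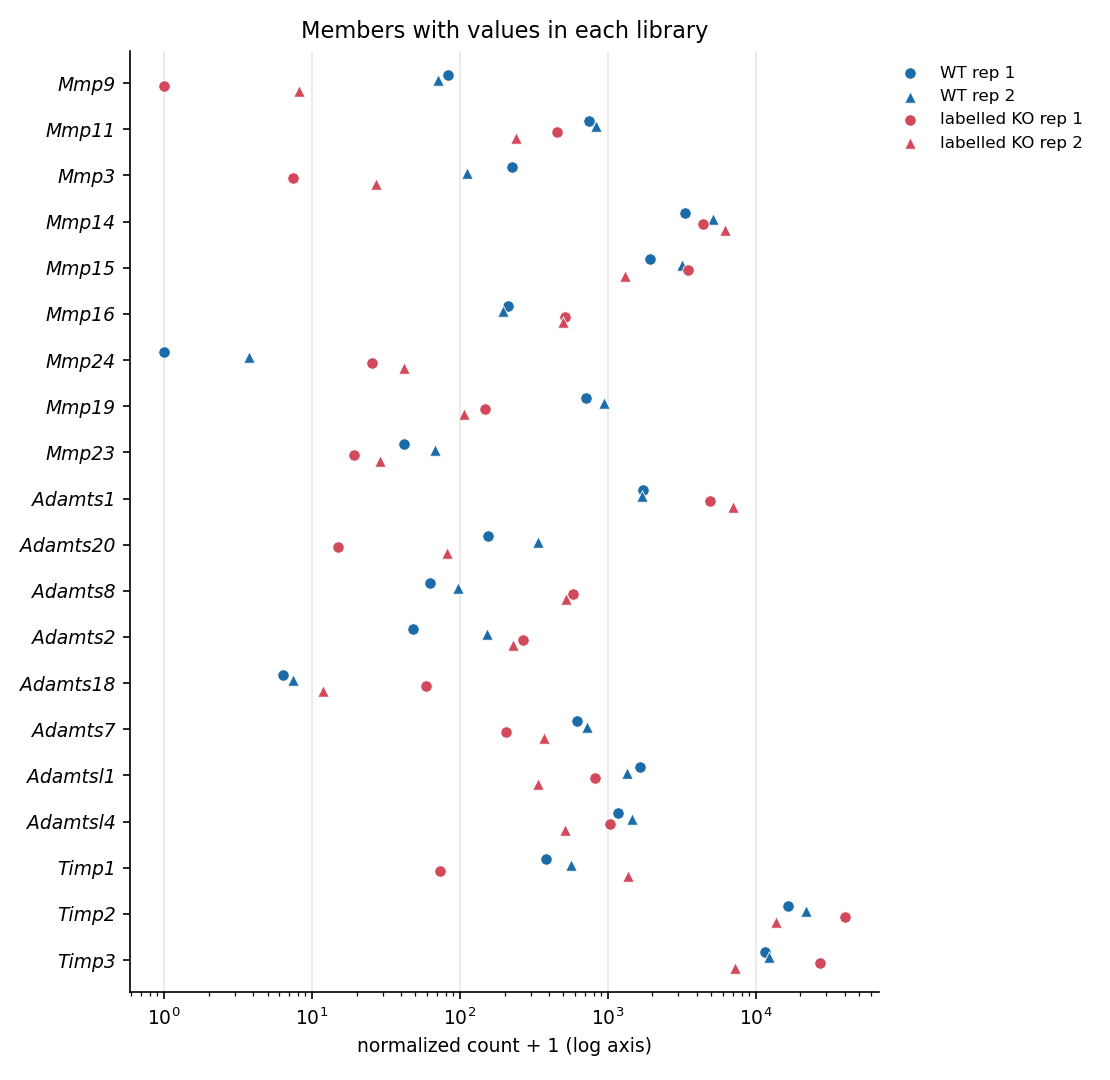
Normalized counts plus 1 (log axis) of the 20 members with values by the naming rule, in the WT libraries (blue) and the KO-labelled libraries (red), with circles for replicate 1 and triangles for replicate 2. Colours are apart for Mmp9, Mmp3, Mmp19, Adamts1 and Adamts8 and interleaved for Mmp15, Timp1, Timp2 and Timp3.

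Procollagen N-propeptidases trim fibrillar procollagens. Adamts2 had 46.9 and 152 normalized counts in WT against 267 and 227 in the KO-labelled libraries (log2 fold change 1.53, standard error 0.64, limma adjusted p = 0.384), and the related Adamts3 and Adamts14 overlapped between the groups. Of the other ADAMTS proteases, 5 of 7 were lower in fit. Adamts7, which cuts cartilage oligomeric matrix protein, had 619 and 720 normalized counts in WT against 203 and 370 in the KO-labelled libraries (log2 fold change -1.28, standard error 0.41, limma adjusted p = 0.301). Adamts18 had 5.33 and 6.44 normalized counts in WT against 57.8 and 10.8 in the KO-labelled libraries, so most of its difference came from KO replicate 1 (log2 fold change 1.94, standard error 0.97). None of these was called by DESeq2.

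All 5 ADAMTS-like genes had groups that did not overlap, 2 with the KO-labelled libraries above and 3 with them below, beside 47.9% of all genes without overlap, 22.5% above and 25.4% below. Adamtsl1 had 1643 and 1342 normalized counts in WT against 813 and 338 in the KO-labelled libraries (log2 fold change -1.50, standard error 0.48, limma adjusted p = 0.305). Adamtsl4, which binds fibrillin microfibrils, had 1161 and 1465 normalized counts in WT against 1031 and 514 in the KO-labelled libraries (log2 fold change -0.84, standard error 0.42). Adamtsl2, chosen after its values were seen, was near the floor in WT with 1 read in each library and had 15.0 and 30.6 normalized counts in the KO-labelled libraries. That is 2 against 48 reads, a ratio of 23.1 with a 95% counting interval of 6.05 to 196, and the DESeq2 adjusted p was 0.0570.

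The inhibitors gave no difference between the groups beyond the spread, since the groups overlapped for all 4 TIMPs. Timp1, the TIMP induced in reactive glia, had 383 and 566 normalized counts in WT against 72.8 and 1365 in the KO-labelled libraries, which lay 18.8-fold apart on either side of WT (log2 fold change -0.55, standard error 1.33). The sign of that value depended on the tool, as edgeR gave 0.55 and DESeq2 0.60. Timp2, which takes part in the activation of pro-Mmp2 by Mmp14, had 16383 and 21673 normalized counts in WT against 39871 and 13687 in the KO-labelled libraries (log2 fold change 0.31, standard error 0.58). Timp3, the TIMP bound to the matrix and the one that also inhibits several ADAMTS proteases, had 11569 and 12264 normalized counts in WT against 27199 and 7273 in the KO-labelled libraries (log2 fold change 0.24, standard error 0.65). Timp2 and Timp3 were thus highest in KO replicate 1 and lowest in KO replicate 2, the order opposite to Timp1. Gfap had the same order, with 687 and 765 FPKM in WT against 1871 and 117 in the KO-labelled libraries, while the other 7 astrocyte markers in sum were lower in both KO-labelled libraries than in WT. Their part in the TIMP values was not tested. Without KO replicate 1 the log2 fold change was 1.55 for Timp1, -0.46 for Timp2 and -0.71 for Timp3.

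Some of these values may include reads of other genes. In GENCODE M21, 21 of the 47 members overlap another annotated gene and 13 a protein-coding one. Timp1, Timp3 and Timp4 lie within the synapsin genes Syn1, Syn3 and Syn2. Timp2, the most abundant member, overlaps Cep295nl on its own strand, where the use of strand would not separate the reads. Mmp11 overlaps Chchd10, Mmp19 overlaps Tmem198b and Adamts7 overlaps Tbc1d2b. Adamts8 overlaps the antisense gene Gm29724, while Adamts1, Mmp9 and Mmp3 overlap no annotated gene.

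Matrix genes were examined next as a list of 16, which holds no collagens or laminins and so covers only a part of the substrates. The list was chosen with earlier results of these data known. Of the 15 tested, 13 were higher in fit and 2 lower (median log2 fold change 2.05, beside -0.07 over all genes). In 9 of them both KO-labelled libraries lay above WT and in 0 below, beside 22.5% and 25.4% of all genes. DESeq2 called 7 higher and 0 lower, beside 1.29% and 3.63%, and limma called 0 at the adjusted threshold. At an unadjusted p under 0.05 limma had 7 higher, beside 4.54% of all genes. These 7 took in aggrecan (Acan), outside the naming rule, and left out versican (Vcan), which DESeq2 called. Acan had 0 and 0 normalized counts in WT against 3.21 and 15.3 in the KO-labelled libraries. Neurocan (Ncan), a hyalectan of the brain, had 1154 and 3252 normalized counts in WT against 21215 and 15995 in the KO-labelled libraries (log2 fold change 3.25, DESeq2 adjusted p = 4.23e-05). Fibronectin (Fn1) had 1702 and 6918 normalized counts in WT against 21133 and 70923 in the KO-labelled libraries (log2 fold change 3.50, DESeq2 adjusted p = 0.00115). Tenascin-C (Tnc) had 9948 and 9698 normalized counts in WT against 27507 and 59841 in the KO-labelled libraries (log2 fold change 2.05, DESeq2 adjusted p = 0.00224). In all 3 genes both KO-labelled libraries lay above both WT libraries.

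Elastin (Eln), versican (Vcan), reelin (Reln) and fibrillin-1 (Fbn1) were also called higher, with DESeq2 adjusted p-values from 0.00219 to 0.0147. In versican the difference came mostly from 1 library, with 59.8 and 65.3 normalized counts in WT against 87.8 and 1394 in the KO-labelled libraries. Reelin was also uneven, with 41.6 and 71.7 normalized counts in WT against 700 and 130 in the KO-labelled libraries. Dystroglycan (Dag1), with Tnc the most abundant of the list per length, had a log2 fold change of 0.02 (standard error 0.48). Brevican (Bcan), another hyalectan of the brain, had 3111 and 2473 normalized counts in WT against 3500 and 1646 in the KO-labelled libraries, and its groups overlapped.

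**Figure D4:**
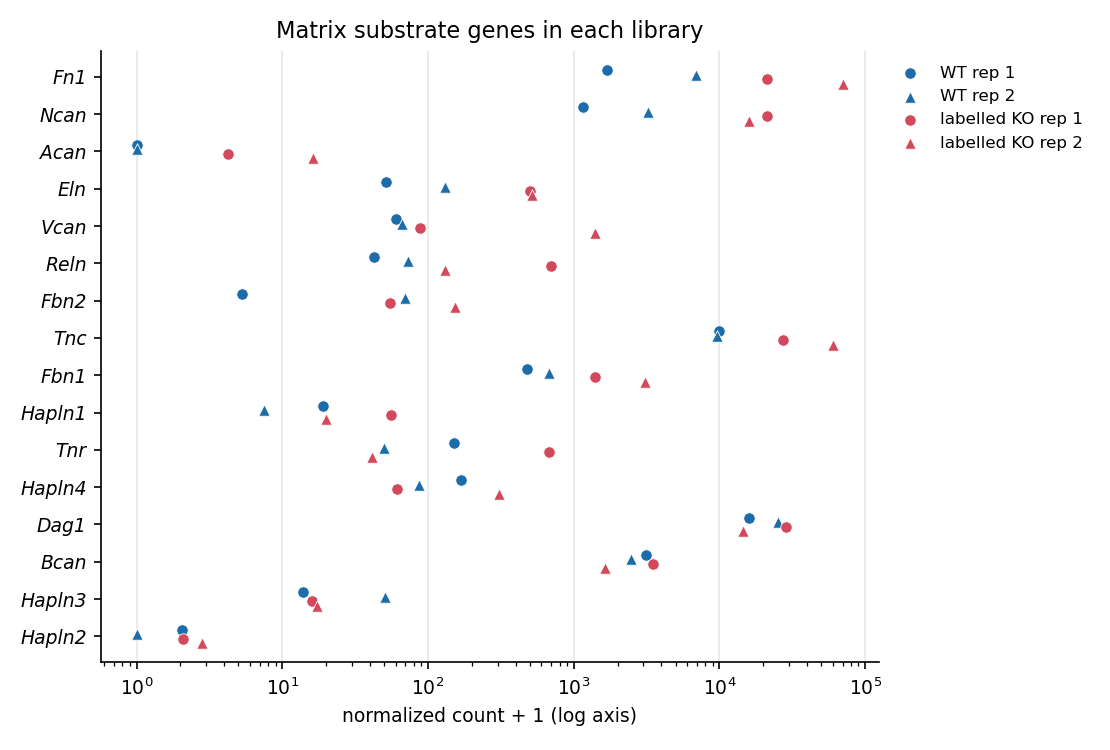
Normalized counts plus 1 (log axis) of the 16 listed matrix genes, ordered by fitted log2 fold change, in WT (blue) and in the KO-labelled libraries (red), with circles for replicate 1 and triangles for replicate 2. Red lies right of blue for Fn1, Ncan, Eln, Tnc and Fbn1, while Vcan has 87.8 in one KO-labelled library and 1394 in the other.

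The enzymes upstream of the MMPs and the surface proteins that regulate them were examined as well. In the plasminogen activation list, 8 of the 9 genes tested were higher in fit (median 0.98), beside 46.3% of all genes. DESeq2 called 1 higher, the urokinase receptor Plaur, beside 1.29% of all genes. Plaur had 24.5 and 59.8 normalized counts in WT against 12.8 and 1417 in the KO-labelled libraries, so that its groups overlapped. The protease inhibitor Serpine2, the most abundant gene of that list per length, had 4199 and 6548 normalized counts in WT against 12576 and 8017 in the KO-labelled libraries and was not called (log2 fold change 0.94, standard error 0.39).

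Among 15 activators and cell-surface regulators, 8 were higher and 7 lower in fit (median 0.24). DESeq2 called 3 higher and 1 lower, beside 1.29% and 3.63% of all genes. Spock1, a testican proteoglycan, had 4.27 and 0 normalized counts in WT against 302 and 172 in the KO-labelled libraries (log2 fold change 6.64, DESeq2 adjusted p = 3.19e-09). Thrombospondin-1 (Thbs1), which binds MMPs, had 10403 and 16053 normalized counts in WT against 46932 and 59784 in the KO-labelled libraries (log2 fold change 2.04, DESeq2 adjusted p = 0.000773). Integrin beta-3 (Itgb3) was called higher (log2 fold change 3.41). It had 4.27 and 22.1 normalized counts in WT against 41.7 and 319 in the KO-labelled libraries. Most of its difference came from KO replicate 2. The proprotein convertase Pcsk5 was called lower (log2 fold change -2.02). The MMP inducer basigin (Bsg), the most abundant of the list per length, had a log2 fold change of -0.08 (standard error 0.38).

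Genes of the ADAM family, membrane-bound relatives of which several shed surface proteins, were higher in fit in 8 of the 11 tested (median 0.58). Over all genes 46.3% were higher in fit. Adam12 had 421 and 165 normalized counts in WT against 1945 and 4982 in the KO-labelled libraries, and Adam9 had 2431 and 2117 in WT against 6170 and 7689 in the KO-labelled libraries. DESeq2 called both higher (adjusted p = 2.11e-05 and 0.00424). Over all genes it called 1.29% higher and 3.63% lower. It called Adam8, which is expressed in myeloid cells, lower, with 230 and 643 normalized counts in WT against 26.8 and 72.1 in the KO-labelled libraries (adjusted p = 0.00136). Adam10, the other abundant ADAM per length, was not called (log2 fold change 0.66, standard error 0.34). Of 14 cytokine inducers and AP-1 or Ets factors, 7 were higher and 7 lower in fit (median -0.08). In 2 of them both KO-labelled libraries lay above WT and in 6 below, beside 22.5% and 25.4% of all genes. DESeq2 called 0, and so did limma at the adjusted threshold. At an unadjusted p under 0.05 limma had 2, Tnf and Junb, which were lower, beside 9.18% of all genes. Jun and Jund, the most abundant of them per length, had log2 fold changes of 0.16 and -0.37.

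Markers of other cell types and states are given beside the proteases and the matrix genes. Over all genes, 22.5% had both KO-labelled libraries above WT and 25.4% below, and DESeq2 called 1.29% higher and 3.63% lower. Proliferation markers had both KO-labelled libraries above WT in 8 of 8 genes and summed to 2.27 and 11.6 FPKM in WT against 27.1 and 50.4 FPKM in the KO-labelled libraries. Mural markers summed to 78.5 and 266 FPKM in WT against 586 and 1409 FPKM in the KO-labelled libraries, mostly as Acta2, while 5 of the 6 tested were lower in fit and Kcnj8 was at 0 in KO replicate 2. Fibroblast and meningeal markers summed to 70.3 and 29.5 FPKM in WT against 22.0 and 25.5 FPKM in the KO-labelled libraries, and without Ogn to 5.28 and 11.4 against 10.1 and 11.4. Of these 8 genes 4 were higher in fit and 4 lower, 1 (Col1a2) lay above WT in both KO-labelled libraries and 4 below, and Slc6a13 and Lum, near the floor in WT, were at 0 in KO replicate 1. Endothelial markers were low, with sums of 0.55 and 1.05 FPKM in WT against 1.45 and 1.32 FPKM in the KO-labelled libraries. Of the 5 tested, 2 were higher in fit and 3 lower. Oligodendrocyte lineage markers summed to 153 and 228 FPKM in WT against 370 and 231 FPKM in the KO-labelled libraries, mostly as Olig1. Of these 8 genes 5 were lower in fit (median log2 fold change -0.40), 1 lay above WT in both KO-labelled libraries and 2 below, and DESeq2 called Cspg4 lower. The part of these cells or states in the values of the proteases and their substrates was not tested.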

How the data were processed

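RNA-seq of 4 libraries of primary astrocytes was used, 2 of them WT and 2 Tet1 KO per the labels, which also number the replicates. The authors filtered paired-end reads and mapped them to mm10. The aligner, the counting program and the use of strand are not given in the sources used here. For each library the authors deposited a signal value per gene. The file is named for FPKM, yet the deposited signal is a read count over the size factor of its library. Every value (100%) was a whole multiple of what 1 read is worth (tolerance 0.02 reads), which gave back whole reads. The size factors were 0.937 and 1.09 for WT against 0.934 and 1.11 for the KO-labelled libraries. The authors' own fold changes and p-values were not used. Gene lengths and positions came from the deposited table, and FPKM was computed here from recovered reads, gene length and total reads on genes.

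The members, roles and gene lists were chosen with earlier results of these data known. The main test was limma 3.58.1 under R 4.3.3, with a trended variance prior and without a block, on log2(normalized count + 1). It took in 22094 genes whose mean reached 1, and p-values were adjusted by Benjamini-Hochberg. Changes of low genes come out too small on this scale. The recovered reads were tested with edgeR 4.0.16 (quasi-likelihood) and DESeq2 1.42.0. Values per library are given for members averaging at least 10 FPKM, for members with an adjusted p under 0.05 in any tool, and for members averaging at least 20 normalized counts whose log2 fold change was at least 1 in size and whose groups did not overlap. Listed genes are named where a tool called them or where they were among the 2 most abundant of their list. One of the genes this rule names is not reported here. Libraries of a group differed beyond sampling noise (median chi-square per gene 6.48 for WT and 19.7 for the KO-labelled libraries, with 0.455 for noise alone). Intervals on reads are exact and cover counting error only. Promoter windows came from RefSeq (GRCm38.p6) and gene overlaps from GENCODE M21. Python 3.11.15 with numpy 2.4.6, pandas 2.3.3, scipy 1.17.1 and matplotlib 3.10.9 made the tables and plots.

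The tools were tested on counts simulated at the depths of these 4 libraries, with 200 changed genes, 3 simulations each and at least 21432 genes. The simulation gave all genes and both groups the same spread between libraries. The KO-labelled libraries in fact stood further apart than the WT libraries, so the shares below may not hold for the real data. Of genes changed by 4 on the log2 scale, limma recovered 81.3%, edgeR 81.3% and DESeq2 76.0%, and false calls averaged 8.67, 6.33 and 31.7. For a change of 2 the shares were 0.667%, 2.17% and 14.5%, and false calls averaged 0, 0.667 and 10.3. The alternatives covered the pseudocount, the filter, the scaling, FPKM, an untrended prior, a replicate block, each library left out, edgeR and DESeq2. DESeq2 with a block and without each library was added after the data were seen.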

Additional observations from a re-analysis of the deposited data

How the results depend on the processing

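No member passed the adjusted threshold under any limma alternative or in edgeR, and DESeq2 called 6. The 7 members lower at an unadjusted p became 3 with eBayes without a trend, and 1 to 10 when each library was left out in turn. The 5 that were higher became 3 with FPKM as the tested value, and 4 to 8 when each library was left out. The cause was not tested, though a fit without a library also has fewer samples. The members' median log2 fold change of -0.31 stayed below 0 under all alternatives, from -0.52 to -0.17 when each library was left out. It was -0.10 in edgeR and with quantile normalization, and -0.07 in DESeq2, whose median over all genes was -0.03. Scaling moved the median of all genes from -0.07 to -0.11 with equal sums and to 0.06 with quantile normalization, where 6 members were higher and 6 lower. Of the 300 alternative values of the 20 members with values per library, 293 kept their direction. The 7 reversals were in 4 members. Timp1 was at 0.55 in edgeR, 0.60 in DESeq2 and 1.55 without KO replicate 1 (from -2.66 to 1.55 over the libraries left out), and Mmp15 was at 0.15 without WT replicate 2 and 0.50 without KO replicate 2 (from -0.93 to 0.50). Timp2 was at -0.46 without KO replicate 1 (to 1.08) and Timp3 at -0.71 (to 1.19).

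The labels number the replicates in both groups, but same-numbered libraries did not deviate together over genes (correlation -0.0857). With 2 libraries per group this cannot show whether same-numbered libraries shared a preparation. With the replicate block limma had 5 members higher and 8 lower at an unadjusted p, and 0 at the adjusted threshold, with a median log2 fold change of -0.31. DESeq2 with the block, added after the data were seen, called 6 members, with Adamts20 in and Mmp24 out. Depth limits the 7 untested members and the WT values of Mmp24, Mmp13 and Adamtsl2, which rest on 1 to 3 reads.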
